A study of Arabidopsis thaliana with 9 samples.

Results

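The transcripts described here come from 10 genes of the jasmonate and OPDA pathway in Arabidopsis thaliana seeds, chosen by locus identifier for their steps in the pathway: LOX2, LOX3, AOS, AOC2 and OPR3 for synthesis, JAZ1, JAZ2, JAZ10 and MYC2 for signalling, and VSP2 as a target. Of these 10, 9 were listed among the 22555 genes of the deposited tables. Expression of MYC2 (AT1G32640) was not analysed here. AOS, OPR3, JAZ1, JAZ2 and JAZ10 reached 1 FPKM (fragments per kilobase of transcript, scaled to the size of the library) in at least 3 libraries, the minimum for the test across 13679 genes, and LOX2, LOX3, AOC2 and VSP2 did not.

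RNA was sequenced from freshly harvested seeds in 9 libraries, 3 for each of 3 groups, and every group carried the DOF6ioex construct, in which estradiol induces overexpression of the DOF transcription factor gene DOF6. The mock group was DOF6ioex seed, recorded as imbibed in water, the estradiol group was DOF6ioex seed given 50 µM β-estradiol, and the third group was rgl2-13 DOF6ioex seed with the same estradiol dose, each after 8 h. The third group is called below by its label, as the libraries labelled rgl2-13 or the labelled libraries. The rgl2-13 allele affects RGL2, a DELLA repressor of gibberellin signalling. No seed without the construct was treated, so an effect of estradiol itself and an effect of DOF6 cannot be told apart in any estradiol comparison below. Nothing in the labels says that replicates came from separate plants or harvests, so the p-values measure the spread between these libraries, which may be technical.

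Jasmonate synthesis starts in the plastid, where lipoxygenases oxygenate linolenic acid and allene oxide synthase and allene oxide cyclase turn the product into oxophytodienoic acid, OPDA. OPDA is reduced in the peroxisome by OPR3, shortened by beta-oxidation to jasmonic acid and conjugated to isoleucine, and the conjugate joins the receptor COI1 to JAZ proteins, which are then degraded and release MYC2 and related transcription factors. JAZ genes are themselves switched on by MYC2, so their transcripts are widely used as a readout of the pathway. In Arabidopsis seeds OPDA itself is known to act with abscisic acid to hold back germination.

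MYC2 and its relatives bind the G-box CACGTG, and DOF proteins bind the core AAAG. The 250 bases before the annotated start of JAZ2 (chr1:28150447-28150696, minus strand) are shown because JAZ2 was the member with an unadjusted p under 0.05 for estradiol against mock. Sequence and positions are from the RefSeq annotation of TAIR10.1, written 5′ to 3′ on the strand of the gene, with a G-box in capitals.
JAZ2: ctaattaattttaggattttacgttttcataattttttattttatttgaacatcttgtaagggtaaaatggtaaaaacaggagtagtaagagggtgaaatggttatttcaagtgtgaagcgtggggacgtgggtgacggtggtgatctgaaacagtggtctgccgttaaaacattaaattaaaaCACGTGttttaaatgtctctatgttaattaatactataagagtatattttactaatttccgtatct
Both strands were searched from 250 bases before to 50 after the start. JAZ2 held CACGTG with its first base at -66 and AOS held it at -6, so 2 of 9 members searched carried it, against 7.68% of 27443 promoters of the same length. The variant AACGTG lay in LOX3, AOC2 and MYC2, 3 of the 9, against 8.95% of promoters, and none of these 9 held both motifs. AAAG was present in 9 of 9, as in 99.1% of promoters. In JAZ2 its matches began at 16 and 24, after the start, and the stretch shown holds none.

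The DOF6 transcript was at 0.64, 0.86 and 0.41 FPKM in mock, 33.73, 32.05 and 36.00 in estradiol, and 52.25, 21.43 and 27.54 in the libraries labelled rgl2-13. The RGL2 transcript exceeded its DOF6ioex level under the rgl2-13 label instead of falling below it, at 17.92, 16.15 and 18.82 FPKM against 8.02, 7.57 and 10.17 in DOF6ioex estradiol, a difference of log2 0.97 ± 0.14 (SE; limma, adjusted p = 0.0184), so each direction drawn from that group below refers to its label and not to a verified genotype. Replicate 1 under that label stood apart over all genes, with a score of 37.3 on the leading principal component (45.6% of the variance) against -12.9 to 7.13 for the other 8 libraries. The 9 seed storage and oil body markers were above 1 FPKM in every library and summed to 85170 to 117483 FPKM in mock, 83339 to 91012 in estradiol and 71997 to 77825 in the libraries labelled rgl2-13. The 7 green tissue markers summed to 21.0 to 42.4 FPKM, most of it RBCS1A at 16.47 to 34.43, and 2 of the 7 were above 1 FPKM in every library. The 4 endosperm markers summed to 33840 to 67439 FPKM, nearly all of it EPR1. ICE1 ran from 24.62 to 27.72 FPKM, and ZOU and NAC25 were at or below 0.05. Of the 5 testa markers BAN, TT10 and TT12 stayed at or below 0.07 FPKM and TT4 at or below 0.3, while MUM4, of seed coat mucilage, averaged 2.82, 3.10 and 3.49 FPKM in mock, estradiol and the libraries labelled rgl2-13. The estimated depth was 26400000 to 27900000 fragments a library.

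The seeds held abundant JAZ1 and JAZ2 transcripts, low transcripts of JAZ10, OPR3 and AOS, and almost none of LOX2, LOX3, AOC2 and VSP2. Averaged over 9 libraries, JAZ1 exceeded 90.9% of all listed genes, JAZ2 77.0%, JAZ10 59.1%, OPR3 53.8% and AOS 51.1%. LOX3 exceeded 22.7% of genes, AOC2 18.3% and VSP2 8.75%. In this order of FPKM levels the ranges over the 9 libraries of JAZ1, JAZ2, JAZ10 and OPR3 did not overlap each other, whereas those of OPR3 and AOS did, with OPR3 above AOS within each library. The range of AOS lay above that of LOX3, and the ranges of LOX3, AOC2, VSP2 and LOX2 ran into each other.

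**Figure D1:**
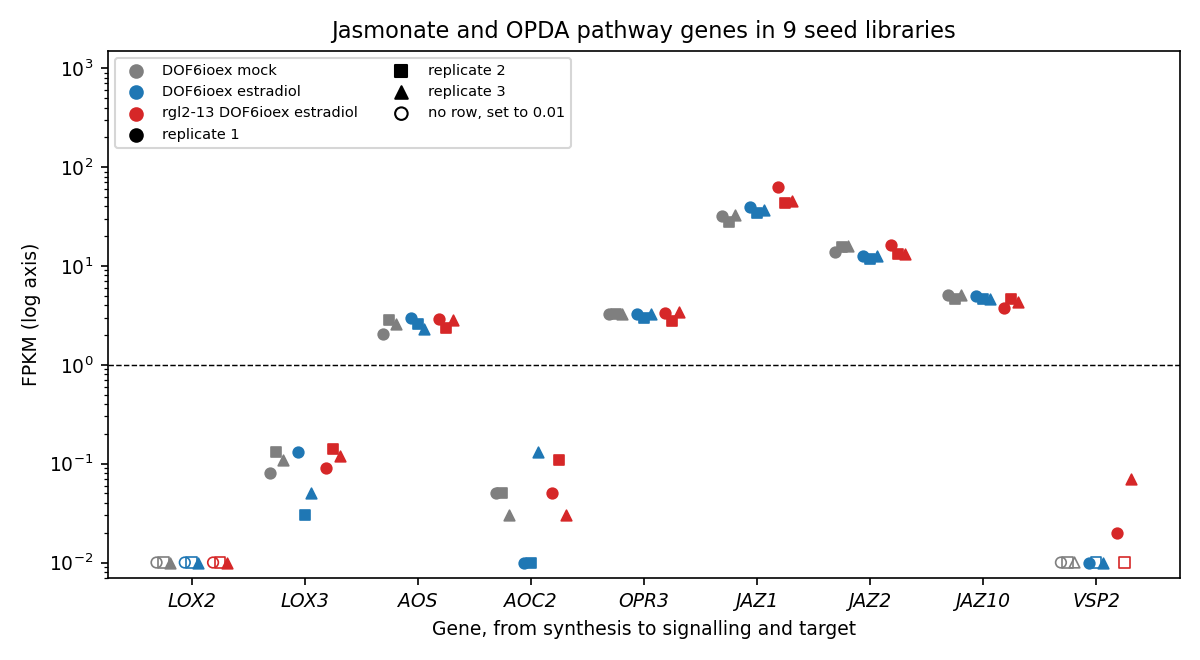
FPKM of the 9 members with values (log axis) in each of 9 libraries, coloured by group and shaped by replicate, with open symbols for libraries whose table had no row and a dashed line at 1 FPKM. JAZ1, JAZ2, JAZ10, OPR3 and AOS lie above the line in every library and the other 4 genes lie at or below 0.14 FPKM.

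The lipoxygenases of the list, which begin the pathway, were near the lower end of what the tables hold. LOX2 (AT3G45140), the main lipoxygenase of wounded leaves, was listed in the replicate 3 libraries of each group, at 0.01 FPKM, the lowest value the tables print. A printed 0.01 need not stand for a fragment. LOX3 (AT1G17420) was at 0.08, 0.13 and 0.11 FPKM in mock, 0.13, 0.03 and 0.05 in estradiol, and 0.09, 0.14 and 0.12 in the libraries labelled rgl2-13. The groups overlap, and since 1 fragment on LOX3 was worth about 0.0121 FPKM, these values rest on few fragments and no difference was detectable at this depth. Of the other plastid lipoxygenases, LOX4 averaged 0.249 FPKM, and LOX6, named after its values were seen, ran from 4.23 to 5.56 FPKM over the 9 libraries, above LOX2, LOX3 and LOX4 in each.

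AOS (AT5G42650), whose product is the substrate of allene oxide cyclase, was at 2.07, 2.86 and 2.61 FPKM in mock, 2.96, 2.56 and 2.28 in estradiol, and 2.89, 2.38 and 2.82 in the libraries labelled rgl2-13. These 3 groups overlap fully, and the highest library was 1.43 times the lowest. AOC2 (AT3G25770), an allene oxide cyclase, stayed between 0.01 and 0.13 FPKM. Its paralogs AOC3 and AOC4 ran from 1.60 to 2.48 and from 0.95 to 2.32 FPKM, so the cyclase transcripts of these seeds were mostly those of genes outside the 10. AOC2 shared 0.0799% of the 50-base stretches of its transcripts with AOC3, so reads could be assigned to the wrong copy over a small part of the gene.

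OPR3 (AT2G06050), the peroxisomal reductase of OPDA, was the steadiest of the tested members. It was at 3.27, 3.27 and 3.26 FPKM in mock, 3.27, 2.98 and 3.30 in estradiol, and 3.37, 2.79 and 3.38 in the libraries labelled rgl2-13. The highest of 9 libraries was 1.21 times the lowest, and the estradiol ranges straddle the mock values. VSP2 (AT5G24770), a vegetative storage protein gene and a classic jasmonate target of leaves, had no row in mock, 0.01 FPKM in estradiol replicates 1 and 3, 0.02 and 0.07 in replicates 1 and 3 of the libraries labelled rgl2-13, and no row in replicate 2 of either group. With 1 fragment on VSP2 worth about 0.0263 FPKM, a printed 0.01 lies below 1 fragment. The higher VSP2 values correspond to a handful of fragments at most, and its paralog VSP1 reached 0.03 FPKM at most.

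The 3 JAZ members differed from each other in level and in their pattern over the groups. JAZ1 (AT1G19180) was at 32.33, 28.06 and 32.89 FPKM in mock, 38.99, 33.95 and 36.69 in estradiol, and 62.71, 43.24 and 45.47 in the libraries labelled rgl2-13. Each group of JAZ1 values lies wholly above the one before, and replicate 1 of the last group is the highest of the 9 libraries. JAZ2 (AT1G74950), a close relative of JAZ1, was at 13.94, 15.61 and 15.75 FPKM in mock, 12.56, 11.88 and 12.71 in estradiol, and 16.24, 13.15 and 13.27 in the libraries labelled rgl2-13. In these unscaled values the estradiol libraries of JAZ2 lie below those of both other groups, and the other groups overlap. JAZ10 (AT5G13220), whose splice forms differ in their stability, was at 5.03, 4.61 and 5.02 FPKM in mock, 4.92, 4.67 and 4.65 in estradiol, and 3.71, 4.65 and 4.29 in the libraries labelled rgl2-13. JAZ10 groups overlap in every comparison, and its lowest value is in the same library as the highest JAZ1 and JAZ2 values.

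**Figure D2:**
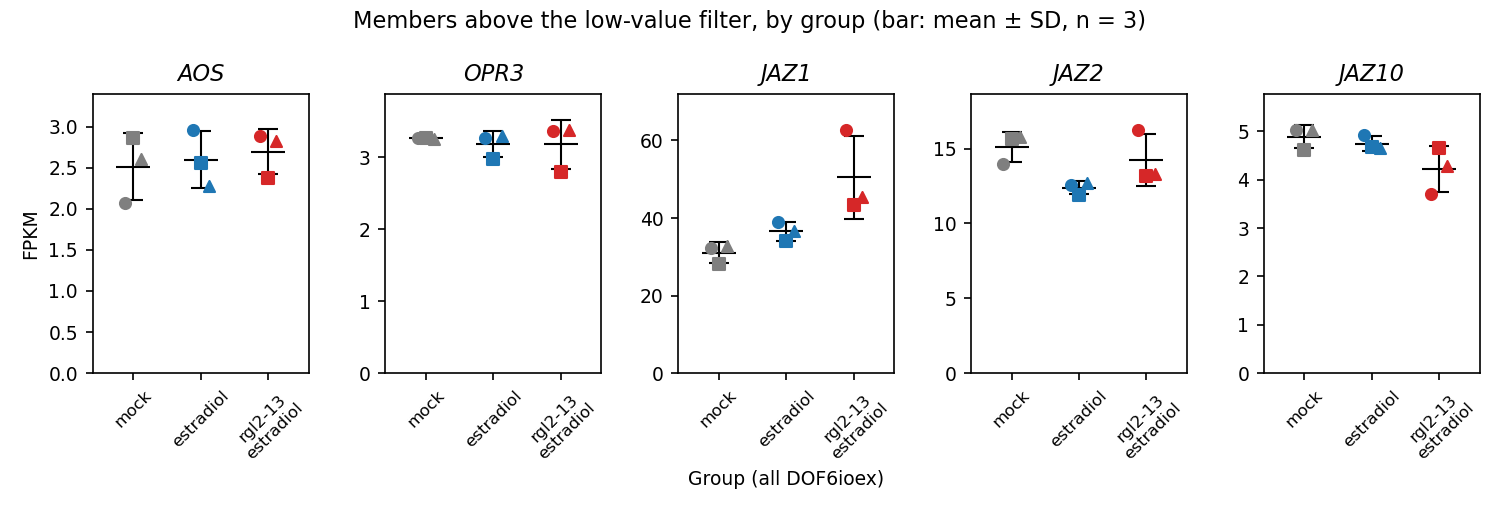
FPKM of the 5 tested members by group, with each library as a point (circle, square and triangle for replicates 1, 2 and 3) and the mean ± SD (n = 3) as bars, on axes that start at 0. JAZ1 means are 31.1, 36.5 and 50.5 FPKM along the groups, JAZ2 is lowest in estradiol, and the groups of AOS and OPR3 overlap.

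Estradiol was set against mock in DOF6ioex seed to see whether these genes respond when DOF6 is induced. No member passed the test: 0 of 5 were called in limma at an adjusted p under 0.05, where 0.154% of the 13679 genes were, and 1 of 5 had an unadjusted p under 0.05 against 933 of all genes. That member was JAZ2, at 15.1 ± 1.01 FPKM in mock and 12.4 ± 0.442 in estradiol (SD, n = 3 each), a difference of log2 -0.27 ± 0.10 (SE; 95% interval -0.48 to -0.05; limma, adjusted p = 0.645). JAZ1 averaged 31.1 ± 2.64 FPKM in mock and 36.5 ± 2.52 in estradiol, a difference of log2 0.23 ± 0.13 with an interval from -0.06 to 0.51 (adjusted p = 0.784). JAZ1 and JAZ2 were the 2 of 5 members whose groups did not overlap, JAZ1 higher and JAZ2 lower, against a background of 14.9% of all genes, 10.6% higher and 4.31% lower. The interval for AOS ran from -0.22 to 0.29, that for OPR3 from -0.23 to 0.18 and that for JAZ10 from -0.24 to 0.17, on the log2(FPKM + 1) scale. The median difference was -0.03 over the 5 members and 0.04 over all tested genes.

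Setting the labelled libraries against DOF6ioex seed, both in estradiol, asks what differs with the rgl2-13 label when DOF6 is induced. Again 0 of 5 members passed, against 0.161% of all genes, with 1 of 5 members and 2084 of all genes at an unadjusted p under 0.05. JAZ1 averaged 50.5 ± 10.7 FPKM in the labelled libraries against 36.5 ± 2.52, a difference of log2 0.44 ± 0.13 (SE; 95% interval 0.15 to 0.72; limma, adjusted p = 0.210), of which 0.33 remained after the median of all genes was taken off. Without replicate 1 of the labelled libraries it was 0.27 (adjusted p = 0.386). JAZ2 averaged 14.2 ± 1.75 FPKM against 12.4 ± 0.442, with a difference of 0.18 and an interval from -0.04 to 0.40 (adjusted p = 0.387). The JAZ2 difference was 0.087 without replicate 1 and 0.077 with median-of-ratios scaling. In unscaled FPKM JAZ1 and JAZ2 again had groups that did not overlap, both higher in the labelled libraries. The background was 20.7% of all genes, 15.8% higher and 4.96% lower. Once each library is divided by its median-of-ratios factor, the JAZ2 groups overlap. JAZ10 averaged 4.22 ± 0.474 FPKM against 4.75 ± 0.15 and differed by -0.14 (interval -0.35 to 0.06; adjusted p = 0.451), or -0.072 without replicate 1 and -0.23 with median-of-ratios scaling. AOS and OPR3 differed by 0.04 (interval -0.22 to 0.30) and -0.0035 (interval -0.21 to 0.20). The members' median was 0.04 and that of all genes 0.11.

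The third contrast, of the labelled libraries with mock, differs in treatment as well as in genotype label and shares its libraries with the other comparisons. JAZ1 came closest to a call here, with 50.5 ± 10.7 FPKM against 31.1 ± 2.64 in mock, a difference of log2 0.67 ± 0.13 (SE; 95% interval 0.38 to 0.95; limma, adjusted p = 0.0505). Relative to the median of all genes the difference was 0.53. The call turned on the processing: it passed in 4 of 17 alternatives, with adjusted p = 0.0368 under median-of-ratios scaling (difference 0.51), 0.0351 under upper quartile scaling (0.52), 0.0261 without replicate 1 of the labelled libraries (0.50) and 0.0247 without replicate 2 (0.77), and over the 17 it ran from 0.0247 to 0.231. In the main test 0 of 5 members passed, against 0.57% of all genes, with 1 of 5 members and 3447 of all genes at an unadjusted p under 0.05. JAZ1 was also the 1 member of 5 whose groups did not overlap, against a background of 30.8% of all genes, 27.3% higher and 3.49% lower. The storage and oil body markers, as summed above, were lower in the labelled libraries than in any other library while JAZ1 was higher, and the part of these and the other marker lists in the JAZ1 result was not tested. In a bulk sample fewer cells of a type and less RNA per cell cannot be told apart. JAZ2 differed by -0.09 (adjusted p = 0.584), or -0.23 with median-of-ratios scaling, -0.14 and -0.056 without mock replicates 1 and 3, and -0.18, -0.036 and -0.042 without labelled replicates 1, 2 and 3. JAZ10 differed by -0.18 with an interval from -0.38 to 0.03 (adjusted p = 0.253), or -0.30 with median-of-ratios scaling and -0.11 without labelled replicate 1. AOS differed by 0.08 (adjusted p = 0.680) and OPR3 by -0.03 (adjusted p = 0.835). The members' median was -0.03 with 2 of 5 fitted higher, and that of all genes 0.14 with 80.1% fitted higher.

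**Figure D3:**
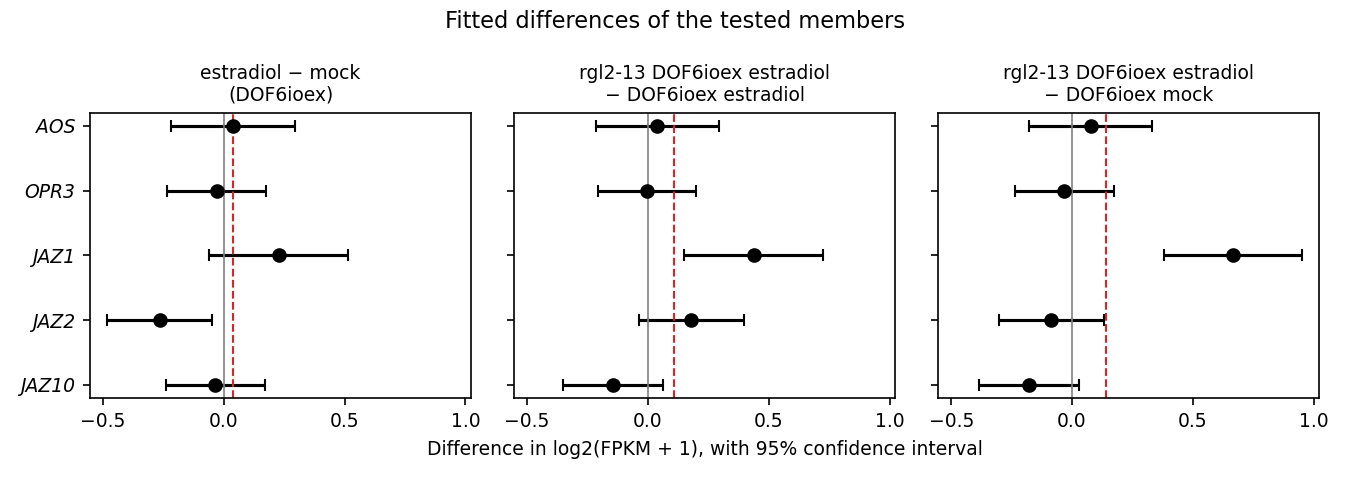
Fitted differences of the 5 tested members in log2(FPKM + 1) with 95% confidence intervals, in 3 panels for the 3 comparisons, with a grey line at 0 and a red dashed line at the median of all 13679 genes (0.04, 0.11 and 0.14). The JAZ1 interval lies above 0 in the panels that hold the libraries labelled rgl2-13, and the JAZ2 interval lies below 0 for estradiol against mock.

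Within the JAZ family, JAZ1 made up a larger share of the transcripts in each group than in the one before. Over 12 JAZ genes, JAZ3 had the highest level (mean of 9 libraries 51.3 FPKM), followed by JAZ1 (39.4), JAZ4 (23.9), JAZ2 (13.9), JAZ12 (12.2) and JAZ7 (10.7), while JAZ10 was the ninth and JAZ6, JAZ9 and JAZ5 averaged below 1 FPKM. The ratio of JAZ1 to JAZ2, which does not depend on how a library is scaled, was 1.80 to 2.32 in mock, 2.86 to 3.10 in estradiol and 3.29 to 3.86 in the libraries labelled rgl2-13. These 3 ranges do not overlap. The ratio of JAZ1 to JAZ10 ran from 6.09 to 6.55, from 7.27 to 7.92 and from 9.30 to 16.9 in the same order. Of the summed JAZ transcripts JAZ1 made up 18.7% to 20.6% in mock, 21.0% to 22.6% in estradiol and 24.6% to 30.9% in the labelled libraries. Without JAZ1 the family summed to 122 to 135, 128 to 138 and 126 to 141 FPKM, and these ranges overlap. The ratios and shares were chosen after the values had been seen and are given without a test.

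**Figure D4:**
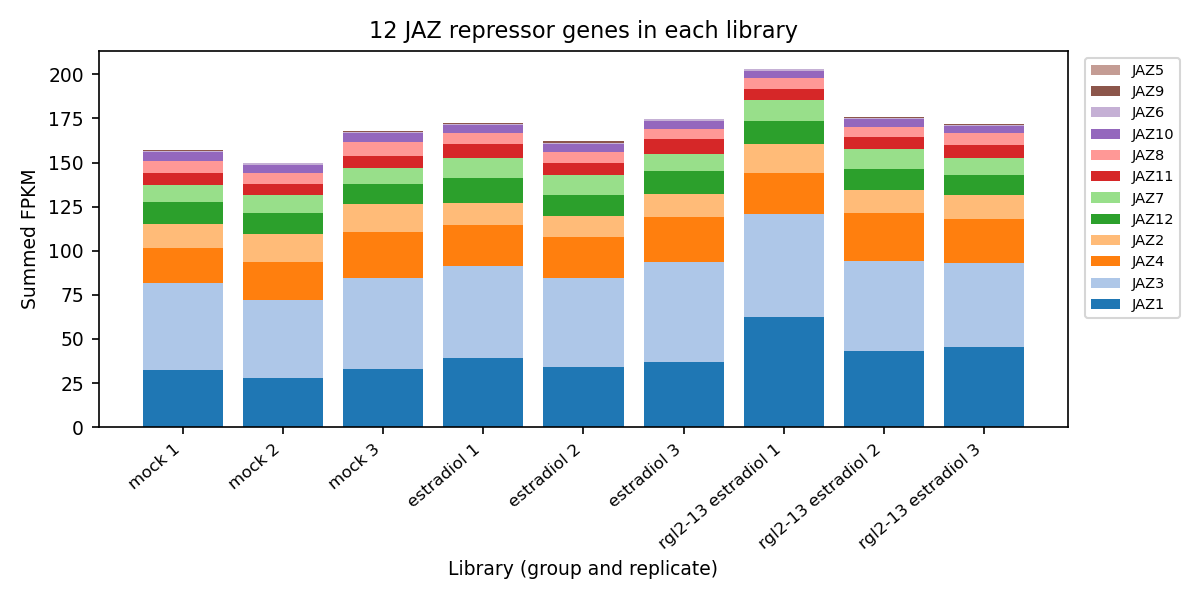
Summed FPKM of 12 JAZ genes in each of the 9 libraries, stacked by gene with JAZ1 at the base. The JAZ1 block is 28.06 to 32.89 FPKM in mock, 33.95 to 38.99 in estradiol and 43.24 to 62.71 in the libraries labelled rgl2-13, and JAZ3 and JAZ4 form the next 2 blocks.

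The rest of the pathway was described with 8 lists of 67 other genes, of which 63 had values and 40 were tested. Against mock, estradiol gave 0 of 40 calls, with 28 of 40 fitted higher where 62.6% of all genes were, and a median difference of 0.09. In the libraries labelled rgl2-13 against DOF6ioex estradiol, 0 of 40 were called and 33 of 40 fitted higher, against 76.4% of all genes, with a median of 0.07. In the same libraries against mock, 1 of 40 was called and 35 of 40 fitted higher, against 80.1% of all genes, and the median of 0.14 equalled that of all genes.

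The 1 called gene was OPR1 (AT1G76680), a cytosolic oxophytodienoate reductase related to OPR3 whose transcript OPDA induces. It was at 14.66, 13.35 and 16.27 FPKM in mock, 21.94, 23.42 and 18.02 in estradiol, and 28.61, 27.81 and 23.74 in the libraries labelled rgl2-13. In these unscaled values, as with JAZ1, each group lies wholly above the one before. OPR1 rose by log2 0.81 ± 0.12 (SE; limma, adjusted p = 0.0151) in the labelled libraries against mock, a call that ended with no filter on low values (adjusted p = 0.119), with the replicate number as a block (0.0557), without mock replicate 1 (0.0614) and without mock replicate 2 (0.0984). Estradiol against mock gave 0.49 (adjusted p = 0.253) and the labelled libraries against DOF6ioex estradiol 0.33 (adjusted p = 0.260). Its neighbour OPR2 averaged 1.09 ± 0.229 FPKM in mock, 1.29 ± 0.188 in estradiol and 1.98 ± 0.441 in the labelled libraries, and DREB2A, a stress transcription factor gene, had the highest level of the 9 OPDA-responsive genes at 207 to 285 FPKM. Of those 9 genes 6 were tested and only OPR1 was called. Whether OPDA had a part in the OPR1 result was not tested.

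Among the 11 other genes for synthesis up to OPDA, 6 were tested and 0 were called in any comparison. FAD7, a plastid desaturase that makes linolenic acid, had the highest level of that list (mean 6.08 FPKM). AOC4 was at 1.52, 1.14 and 0.95 FPKM in estradiol and at 2.32, 1.68 and 1.78 in the labelled libraries, a difference of log2 0.41 (adjusted p = 0.229; 0.65 with a pseudocount of 0.1), with groups that did not overlap. The background in that comparison was 20.7% of all genes, 15.8% higher and 4.96% lower. FAD8, a related desaturase, differed by -0.24 between estradiol and mock (adjusted p = 0.804), or -0.079 without estradiol replicate 1 and -0.52 with a pseudocount of 0.1. Of the 7 genes from OPDA to conjugated jasmonate, 5 were tested with 0 calls. KAT2, a thiolase of peroxisomal beta-oxidation that also serves lipid breakdown, ran from 637 to 841 FPKM, the highest level of the pathway genes listed. PXA1, the transporter that brings OPDA and fatty acids into the peroxisome, averaged 33.7 ± 2.38 FPKM in mock and 39.7 ± 1.62 in estradiol (difference 0.23, adjusted p = 0.645). JAR1, which conjugates jasmonate to isoleucine, differed by 0.30 between the labelled libraries and estradiol (adjusted p = 0.312), or 0.19 without labelled replicate 1.

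Genes that inactivate jasmonate numbered 10, with 6 tested and 0 called. ST2A, a sulfotransferase of hydroxyjasmonate, was at 23.43, 23.99 and 18.39 FPKM in mock, 19.02, 20.87 and 19.16 in estradiol, and 14.29, 15.12 and 16.25 in the libraries labelled rgl2-13. The labelled libraries were lower than every other library, by log2 -0.35 against estradiol (adjusted p = 0.216) and -0.49 against mock (adjusted p = 0.0632). Of all genes, 4.96% and 3.49% lay lower without overlap, in the same order. Against mock ST2A was called with median-of-ratios scaling (-0.64, adjusted p = 0.0433), upper quartile scaling (-0.63, 0.0431) and without mock replicate 3 (-0.61, 0.0399), and over 17 alternatives the adjusted p ran from 0.0399 to 0.274. JOX4, an oxygenase that hydroxylates jasmonic acid, had the highest level of the list, with a mean of 34.4 FPKM. CYP94C1, a cytochrome that oxidises the isoleucine conjugate, differed by 0.33 between estradiol and mock (adjusted p = 0.764), or 0.22 without estradiol replicate 1.

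All 5 genes of the receptor complex and its co-repressors were tested, with 0 calls. COI1 (AT2G39940), the receptor, was at 8.71, 8.75 and 7.97 FPKM in mock, 9.38, 9.03 and 10.63 in estradiol, and 12.87, 11.24 and 11.19 in the libraries labelled rgl2-13. In unscaled FPKM its 3 groups follow each other upward without overlap. This order was found in 4 of the 40 tested genes of the wider lists (COI1, LOX6, MED25 and OPR1) and in JAZ1 among the 5 tested members. Over all tested genes the share was 1.16%. Once each library is divided by its median-of-ratios factor (0.934 to 1.18), each of these 4 genes of the wider lists loses the full order. For COI1 and MED25 mock then overlaps estradiol, and for LOX6 and OPR1 estradiol overlaps the labelled libraries, while the other neighbouring pair stays apart. JAZ1 keeps the order under this scaling. The differences of COI1 were 0.17 for estradiol against mock (adjusted p = 0.782; 0.11 without estradiol replicate 3), 0.26 for the labelled libraries against estradiol (adjusted p = 0.270; 0.16 with median-of-ratios scaling) and 0.43 against mock (adjusted p = 0.0642). SKP1, the adaptor of the receptor complex, had a mean of 213 FPKM. Of the 9 other JAZ genes 6 were tested with 0 calls, and JAZ8, which lacks the usual degradation signal, differed by -0.20 between estradiol and mock (adjusted p = 0.745) and JAZ11 by -0.12 between the labelled libraries and estradiol (adjusted p = 0.532). The JAZ11 difference ran from -0.21 with median-of-ratios scaling to -0.052 without labelled replicate 1, and was -0.18 and -0.068 without estradiol replicates 2 and 3.

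Other jasmonate transcription factors gave 6 tested genes of 10 and 0 calls. MYC3, a relative of MYC2, was at 13.72, 12.44 and 14.84 FPKM in mock, 14.11, 16.04 and 15.70 in estradiol, and 20.67, 16.83 and 16.96 in the labelled libraries. MYC4, a further relative, averaged 1.16 ± 0.197 FPKM in mock and 1.42 ± 0.0306 in estradiol (difference 0.16, adjusted p = 0.805), a difference of 0.087 without mock replicate 3 and 0.28 with a pseudocount of 0.1. JAM3, a repressor that competes for the same sites, had the highest level of the list (mean 17.7 FPKM), and NAC019, a factor downstream of MYC2, differed by 0.25 between the labelled libraries and estradiol (adjusted p = 0.411). The NAC019 difference was 0.098 without labelled replicate 1, 0.14 without estradiol replicate 2 and 0.38 without labelled replicate 2. None of the 6 other jasmonate-responsive genes reached the minimum for the test. CORI3, the highest of them by its mean over 9 libraries, reached 0.15 FPKM, and JR1 reached 0.17. JAZ1 and JAZ2 were thus at 11.88 FPKM or more in every library, while VSP2 was at 0.07 or less.

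**Figure D5:**
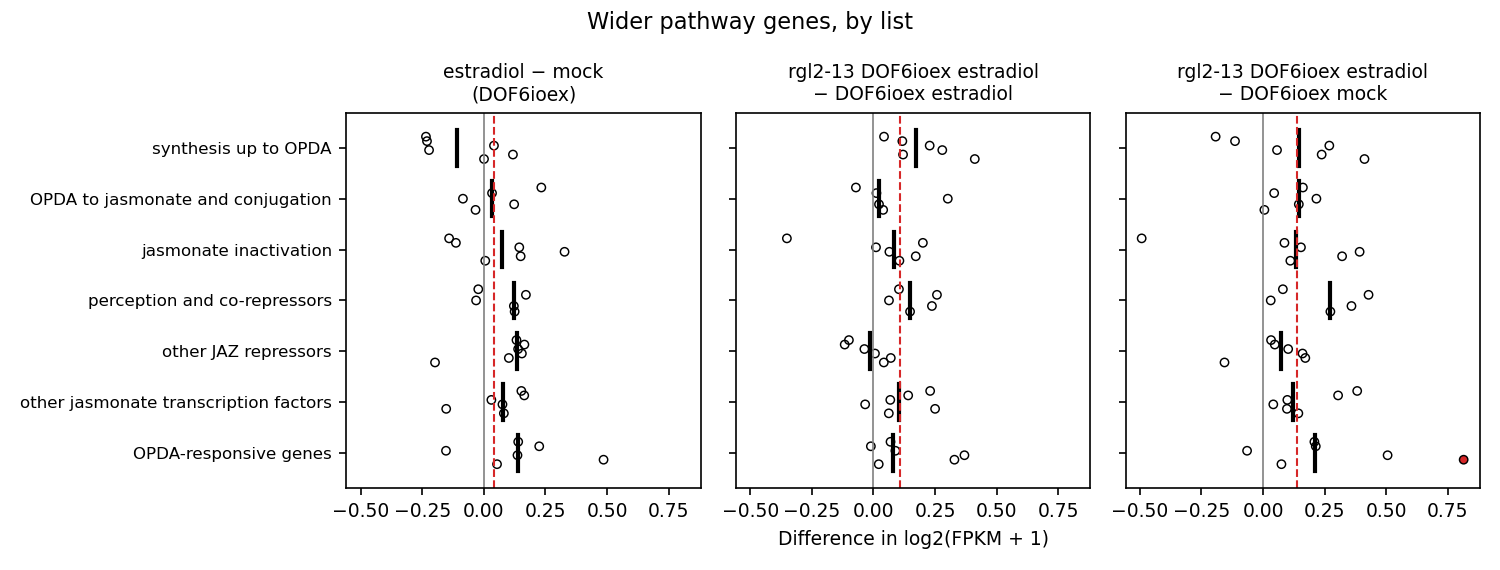
Fitted differences in log2(FPKM + 1) of the 40 tested genes of 7 wider lists, 1 point per gene, in 3 panels for the 3 comparisons, with a black bar at the median of each list and a red dashed line at the median of all genes. The filled red point is OPR1, the 1 called gene, at 0.81 in the panel of labelled libraries against mock.

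JAZ1 was both the highest and the most variable of the tested members, and the genes most like it were sought by the Pearson correlation of log2(FPKM + 1) over the 9 libraries among 13679 genes. They were HSP91 (AT1G79930; r = 0.994), FER (AT3G51550; 0.990), BPEp (AT1G59640; 0.988), AT3G10540 (0.984) and AT1G22200 (0.983). HSP91 averaged 53.7 ± 3.14 FPKM in mock, 60.0 ± 1.94 in estradiol and 72.2 ± 8.92 in the labelled libraries. FER, which encodes a receptor kinase of the cell surface, averaged 30.3 ± 1.74, 33.3 ± 1.89 and 39.7 ± 5.16 FPKM. Replicate 1 of the labelled libraries, which stands apart over all genes and took a median-of-ratios factor of 1.18 against 0.934 to 1.03 elsewhere, enters every one of these correlations.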

How the data were processed

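The members and gene lists were chosen with earlier results of these data known. Per the submitters' processing notes HISAT aligned the reads; the sources used here give no version of it, no genome build and no quantifier. The authors deposited FPKM per gene in 6 pairwise tables, with gene lengths in bases beside them. A single table is headed RPKM (1 of 6) by the authors; its values count as the same unit here, because the library it shares with another table held identical values for 19897 shared genes. A gene with no row for a library was set to 0.01 FPKM, the lowest printed value.

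The test was limma (version 3.58.1, R 4.3.3) with its mean-variance trend on log2(FPKM + 1), a scale that understates changes of low genes. It covered the 13679 of 22555 genes that reached 1 FPKM in 3 or more libraries. The model held all 9 libraries with 1 mean per group, and calls were made at adjusted p under 0.05 (Benjamini-Hochberg). The script was tested on simulated data. FPKM keeps no read totals. Depth was estimated from the steps between low values, of which 65.7% to 72.2% lay within 0.15 of a whole fragment, where chance gives 30%, so depths and values per fragment are approximate and no counting interval was derived.

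Named beside the members are DOF6 and RGL2, called genes of the wider lists, the highest gene of each list, its largest difference in each of the first 2 comparisons, and paralogs. Gene symbols and promoters are from TAIR10.1, matched by locus (22230 of 22415). The deposited gene length equalled the TAIR10.1 model for 91.7% of 12373 loci with a single transcript, and no coordinate was taken from the deposited tables. The promoter of 1 member is not reported here. Alternatives were pseudocounts of 0.1 and 0.5, no filter, no trend, 2 scalings (median of ratios and upper quartile), a model of the 6 libraries compared, a block for replicate number, and each library left out. The authors' pairwise p-values were not used.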

Additional observations from a re-analysis of the deposited data

How the results depend on the processing

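The number of genes called at an adjusted p under 0.05 depended on the processing. For estradiol against mock it was 21, and 4 with no filter, 57 with median-of-ratios and with upper quartile scaling, 105 in the fit on 6 libraries and 12 with the replicate number as a block. For the libraries labelled rgl2-13 against DOF6ioex estradiol it was 22, and 4, 7 and 11 with no filter, 6 libraries and the block. For the same libraries against mock it was 78, and 5 with no filter, 133 and 130 with the scalings, 18 with 6 libraries and 12 with the block. Of these last calls 79.5% were higher without scaling, 49.6% with median-of-ratios and 52.3% with upper quartile scaling, which moved the median of all genes from 0.14 to 0.01. Leaving out 1 library gave 5 to 90, 8 to 26 and 7 to 224 genes in the 3 comparisons. Moves over 1.5 times came, for estradiol against mock, without mock replicates 1 and 2 (8 and 6), estradiol replicates 1, 2 and 3 (9, 6 and 5) and labelled replicates 1 and 2 (90 and 54). For the labelled libraries against estradiol they came without mock replicates 2 and 3 (11 and 12), estradiol replicates 1, 2 and 3 (13, 8 and 13) and labelled replicate 3 (13). Against mock they came without mock replicates 1, 2 and 3 (23, 7 and 36), estradiol replicate 2 (33) and labelled replicates 1, 2 and 3 (128, 224 and 29). The cause was not tested.

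Members called stayed at 0 in the first 2 comparisons under each of 17 alternatives. In the third, JAZ1 passed with either scaling (1 member) and leaving out 1 library gave 0 to 1. With no filter, 9 members were tested and 0 were called. AOS changed sign around 0 with median-of-ratios and upper quartile scaling, to -0.042 and -0.040 for the labelled libraries against estradiol and to -0.036 and -0.032 against mock. Leaving out 1 library moved AOS from -0.057 to 0.11, -0.025 to 0.11 and -0.017 to 0.15 in the 3 comparisons, and OPR3 from -0.050 to 0.0062, -0.039 to 0.066 and -0.068 to 0.036. In all, 533 of 557 alternatives for named genes kept direction and call, 13 reversed, 7 gained and 4 lost the call. Deviations of same-numbered libraries from their group means had correlations from -0.41 to 0.25, with 2 of 9 pairs over 0.1. With 3 libraries in a group, these correlations cannot tell whether same-numbered libraries share a batch or harvest. Few fragments on LOX2, LOX3, AOC2 and VSP2 limit any statement on those genes.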
